A study of Homo sapiens with 6 samples.

Results

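The 57 genes described here encode RNA polymerase I, its initiation factors, small nucleolar ribonucleoproteins (snoRNPs), ribosome assembly factors and other nucleolar proteins, and they were taken by gene name from a table of 58735 genes. The list gives names and no measured value, although it was written with earlier results of these data known. RNA sequencing was performed on MM.1S, an established human multiple myeloma cell line, in order to find genes downstream of PRMT1, the main enzyme that places asymmetric dimethylarginine on proteins. The 3 control libraries came from cells given a non-targeting siRNA (si-NC), and the 3 PRMT1 KD libraries from cells given siRNA against PRMT1, both at 100 nM with cells collected at 72 h. The study lists several siRNAs against PRMT1, and the one used for these libraries is not named in the sources used here. The replicates were described by the study as dependent biological replicates, so the p-values given here measure the spread between these libraries and may not cover that between independent cultures.

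Ribosomes are built mainly in the nucleolus. RNA polymerase I transcribes a long precursor rRNA, box C/D and box H/ACA snoRNPs guide its 2′-O-methylation and pseudouridylation, and assembly factors then fold, cut and trim it into the small (40S) and large (60S) subunits. Fibrillarin (FBL), the methyltransferase of the box C/D snoRNP, and nucleolin (NCL), an abundant nucleolar RNA-binding protein, carry arginine- and glycine-rich stretches that are known substrates of PRMT1. Plasma cells secrete large amounts of immunoglobulin and depend on a high rate of ribosome production. The libraries measured transcripts of these genes and not rRNA, the proteins or their methylation.

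Many genes of ribosome production carry the E-box CACGTG, the sequence bound by MYC and related factors, near their start. The letters CACGTG, which read the same on both strands, were counted in the RefSeq promoters of the members (250 bases before to 50 bases after the start, build GRCh38.p14). Of the 48 members with an entry, 19 (39.6%) held the motif. The share was 25.5% for 28 of 110 other ribosome biogenesis genes, 13.0% over the 8491 tested genes with an entry and 7.26% over all 35116 promoters. The share over all promoters counts single entries, whereas the others count genes with the motif in any of their entries, so they are not like measures. These shares describe letters in a window and say nothing of binding. The 250 bases before the start of NOP10, the member with the most negative fold change, held the motif at both −170 and −11, counted to its first base, and they are shown whole. The FBL window is shown for its place in the box C/D snoRNP, and those of PES1, GNL3, WDR43, DDX21, GAR1 and UTP18 because they cover different steps of the pathway. Capitals mark CACGTG, each line runs 5′ to 3′ on the strand of the gene, and the shorter windows have 12 bases on either side of the motif.
NOP10, chr15:34343137-34343386, minus strand: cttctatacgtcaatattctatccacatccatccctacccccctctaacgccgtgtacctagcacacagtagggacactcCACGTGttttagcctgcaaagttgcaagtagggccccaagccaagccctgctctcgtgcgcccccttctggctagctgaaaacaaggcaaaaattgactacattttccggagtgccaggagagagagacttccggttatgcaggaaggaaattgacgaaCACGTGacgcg
FBL, chr19:39846356-39846385, minus strand: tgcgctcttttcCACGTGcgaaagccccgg
PES1, chr22:30591880-30591909, minus strand: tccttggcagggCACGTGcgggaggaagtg
GNL3, chr3:52686026-52686055, plus strand: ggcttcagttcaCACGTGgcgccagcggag
WDR43, chr2:28894658-28894687, plus strand: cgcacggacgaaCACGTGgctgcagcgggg
DDX21, chr10:68956604-68956633, plus strand: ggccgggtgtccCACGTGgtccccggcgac
GAR1, chr4:109815781-109815810, plus strand: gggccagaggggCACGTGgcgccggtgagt
UTP18 upstream motif, chr17:51260445-51260474, plus strand: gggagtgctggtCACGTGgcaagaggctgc
UTP18 motif at the start, chr17:51260538-51260567, plus strand: gcagcgaggttcCACGTGagcgcctgcgtt

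In FBL, PES1, GNL3, WDR43 and GAR1 the motif lay between 4 and 32 bases after the start, whereas in DDX21 it began at −31. UTP18, a component of the small subunit processome, held one copy at −89 and another at 5 bases after the start. Members with and without the motif are compared after their expression.

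Expression was given as FPKM, fragments scaled by gene length and library size, and tested on log2(FPKM + 1) with limma, two-sided, with Benjamini-Hochberg adjustment over the 13585 genes with a mean of at least 1 FPKM. Fold changes below are PRMT1 KD minus control on that scale, and a gene is said to rise or fall only at an adjusted p under 0.05. Reads per library, worked back from FPKM and gene length, ranged from 14439217 to 16465026. PRMT1 itself was 61.7, 62.8 and 58.9 FPKM in the control libraries and 13.3, 14.0 and 12.5 FPKM in the PRMT1 KD libraries, and it fell by 2.13 on the log2 scale (limma adjusted p = 2.77e-05). All 10 plasma cell markers examined were at or above 1 FPKM on average, with a summed level of 1366 to 1440 FPKM in control and 1361 to 1520 FPKM in PRMT1 KD libraries. Of these, SLAMF7 fell by 0.65 on the log2 scale, from 38.0 ± 0.961 to 23.8 ± 1.17 FPKM (SD, n = 3 each, limma adjusted p = 0.00515), and the other 9 did not pass adjustment, although XBP1 and PRDM1 were lower and CD38 and MZB1 higher in all PRMT1 KD libraries than in all control libraries. The part of these markers in the members' values was not tested. The summed level of 4 B cell markers was 2.26 to 2.97 FPKM, MS4A1 was listed at 0 in every library, and none of 3 myeloid, 3 erythroid or 3 stromal and epithelial markers reached 1 FPKM. Of 5 T and NK cell markers, CD3E stood at 32.1 to 39.0 FPKM while CD8A was listed at 0. NKG7 was 1.03 to 1.55 FPKM in control and 0.712 to 1.04 FPKM in PRMT1 KD libraries. CD3E was higher in all PRMT1 KD libraries than in all control libraries. CD3D, on 0 to 13 reads, was lower in all of them.

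The members were well expressed, and their expression after PRMT1 KD stayed close to control. Of the 57, 55 passed the filter, with mean levels from 2.60 FPKM for TAF1A to 372 FPKM for NPM1 and a median of 22.0 FPKM. Only NOLC1, the gene of a coiled-body and nucleolar scaffold, passed an adjusted p under 0.05, which is 1.82% of the members tested beside 2.05% of all genes tested (1.07% higher and 0.986% lower). An unadjusted p under 0.05 was reached by 7 members with higher (12.7%) and 2 with lower values (3.64%), 16.4% together, beside 19.5% of all genes (10.1% higher and 9.47% lower). The control and PRMT1 KD libraries did not overlap for 9 members that were higher (16.4%) and 3 that were lower (5.45%) in PRMT1 KD, 21.8% together, beside 25.9% of all genes (13.6% higher and 12.3% lower). With both directions together, each of the 3 shares lay below that of all genes, whereas on the higher side alone each lay somewhat above it and on the lower side below it. At an adjusted p under 0.05, the higher share rests on NOLC1 alone, and these differences between shares were not tested. In bulk RNA, a change in transcript per cell and a change in the mix of cells cannot be told apart.

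Fold changes of the 55 members ran from −0.22 to 0.37 with a median of 0.060, beside a median of 0.0095 over all genes tested. They were above 0 for 40 members (72.7%) and below 0 for 15, whereas 52.6% of all genes tested were above 0. The middle part of the members, from the first to the third quartile, spanned −0.017 to 0.10. The 95% interval of a member extended a median of 0.15 to either side of its fold change, so a shift as small as the median could not be told from 0 for a single gene. All 55 fold changes were smaller than 1.3-fold in either direction, and for 51 the whole interval lay within 1.3-fold, a limit chosen after the values were seen. Of all 13585 genes tested, 12669 were smaller than 1.3-fold, and 8524 had the whole interval within 1.3-fold. Intervals over all genes were wider, however, with a median of 0.20 to either side beside 0.15 for the members. The median level was also lower over all genes, at 6.31 FPKM beside 22.0 FPKM. NOLC1 lay close to that limit at 0.37. It lay beyond the limit with TPM (0.397), with a pseudocount of 0.1 (0.379), without control replicate 1 (0.397) and without control replicate 2 (0.406).

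**Figure D1:**
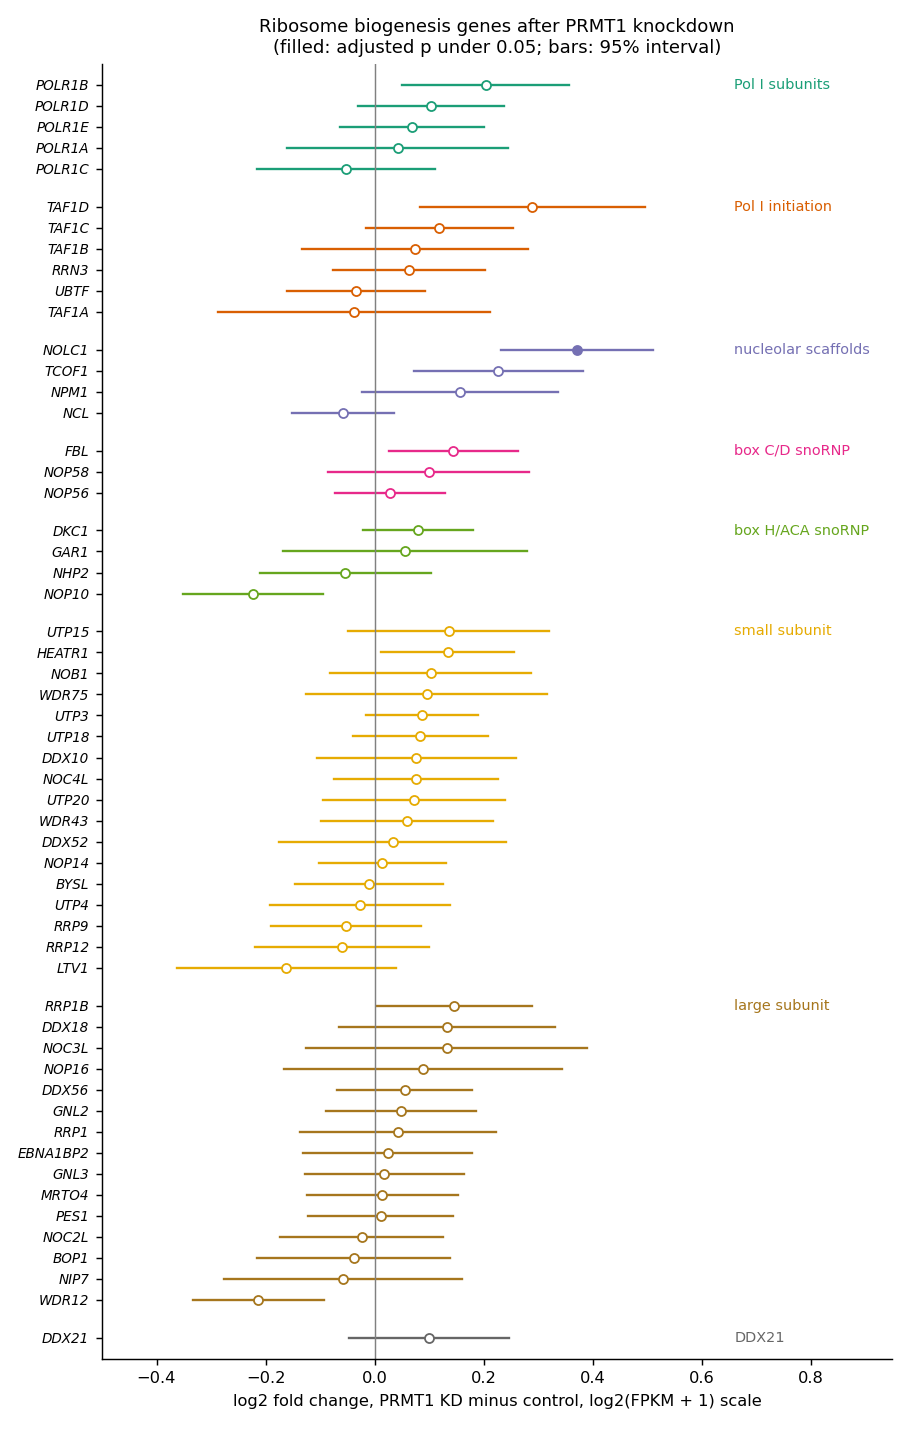
Log2 fold change (PRMT1 KD minus control, log2(FPKM + 1) scale) of the 55 members tested, grouped by role, with points for the fold change, bars for its 95% interval and a filled point where the adjusted p is under 0.05. The intervals of all but 9 members cross 0, NOLC1 lies farthest to the right at 0.37, and NOP10 and WDR12 lie farthest to the left at −0.22 and −0.21.

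**Figure D2:**
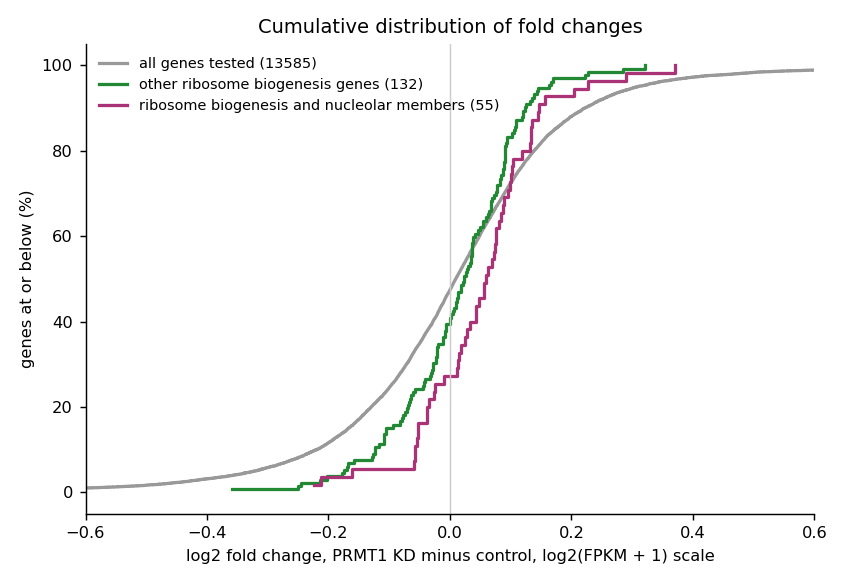
Cumulative distribution of log2 fold changes (horizontal, PRMT1 KD minus control, log2(FPKM + 1) scale; vertical, percent of genes at or below each value) over the 55 members, the 132 other ribosome biogenesis genes tested and all 13585 genes tested. The members sit in a narrow range around a median of 0.060, beside 0.023 for the other ribosome biogenesis genes and 0.0095 for all genes.

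The 5 RNA polymerase I subunits had a median fold change of 0.069, and none rose or fell. POLR1A and POLR1B encode the 2 largest subunits, which together form the active centre. POLR1B was 12.2, 14.1 and 12.5 FPKM in control and 14.5, 15.1 and 15.4 FPKM in PRMT1 KD libraries. Each PRMT1 KD library lay above each control library, with a fold change of 0.20 that did not pass adjustment (limma adjusted p = 0.149). POLR1A, in contrast, overlapped, at 13.2, 13.9 and 11.1 FPKM in control and 13.5, 13.4 and 12.4 FPKM in PRMT1 KD libraries. Its fold change of 0.043 went to −0.046 without control replicate 3. POLR1C and POLR1D, which RNA polymerase III also uses, had fold changes of −0.052 and 0.10, and POLR1E, of the subunit that helps initiation and elongation, had 0.069.

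The 6 initiation factors likewise had a median of 0.069, and none rose or fell. TAF1D, a subunit of the selectivity factor SL1 that recruits the polymerase to the rRNA gene promoter, was 17.0, 17.0 and 19.5 FPKM in control and 20.6, 20.8 and 24.8 FPKM in PRMT1 KD libraries. The groups did not overlap, and the highest library was PRMT1 KD replicate 3. Its fold change was 0.29 (limma adjusted p = 0.136), and it was called with limma's voom on the reads worked back (adjusted p = 0.0322), under which 4 members were called beside 6.59% of all genes. TAF1D shares 11.2% of its exon bases with other genes on the same strand. The other SL1 subunits had fold changes of −0.038 for TAF1A (0.059 without control replicate 3), 0.075 for TAF1B and 0.12 for TAF1C. UBTF, which opens rRNA gene chromatin, and RRN3, which links the polymerase to SL1, had fold changes of −0.034 and 0.063. RRN3 ranged from 18.9 to 19.8 FPKM in control and from 19.0 to 21.7 FPKM in PRMT1 KD libraries, and 3 genes named as its pseudogenes held 339 to 432 reads beside 1188 to 1375 reads for RRN3, so part of its signal may be split between them.

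Of the 4 abundant nucleolar proteins and scaffolds, NOLC1 had the largest fold change of all members tested. NOLC1 (hg38 chromosome 10, 102152176 to 102163871, plus strand) encodes a protein that binds both kinds of snoRNP and RNA polymerase I. Its expression was 37.9, 38.4 and 33.5 FPKM in control and 47.5, 47.8 and 47.5 FPKM in PRMT1 KD libraries. The PRMT1 KD libraries were almost equal to each other and all lay above control, of which replicate 3 was lowest. The mean rose from 36.6 ± 2.67 to 47.6 ± 0.163 FPKM (SD, n = 3 each), which is 130% of control and a log2 fold change of 0.37 with a standard error of 0.059 (limma adjusted p = 0.0377). The call stood close to the threshold. It was kept in 7 of 15 alternative settings, with fold changes of 0.31 to 0.41 and adjusted p from 0.00215 to 0.143, and was lost with no filter on low values (0.101), without the variance trend (0.0788), and without control replicate 1 (0.143), control replicate 2 (0.115) or PRMT1 KD replicate 1 (0.0918), replicate 2 (0.137) or replicate 3 (0.0870). In an exact permutation test of 3 libraries against 3, NOLC1 and every other member whose groups did not overlap gave p = 0.1, the smallest that this design allows.

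TCOF1 encodes treacle, a scaffold related to NOLC1 that carries RNA polymerase I and UBTF. It was 11.0, 10.8 and 9.80 FPKM in control and 12.7, 13.1 and 11.8 FPKM in PRMT1 KD libraries. The groups did not overlap, and replicate 3 was the lowest library of each, with a fold change of 0.23 (limma adjusted p = 0.126, and 0.0392 with voom). NPM1, which encodes the nucleolar chaperone nucleophosmin, was the most abundant member at 351, 339 and 364 FPKM in control and 361, 379 and 439 FPKM in PRMT1 KD libraries. Here the groups overlapped, PRMT1 KD replicate 3 stood well above the rest, and the fold change was 0.16 (limma adjusted p = 0.314) and 0.075 without that library. As many as 45 genes are named as NPM1 pseudogenes, and together they held 361 to 444 reads per library beside 20911 to 25592 for NPM1.

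NCL was the member of this group with a negative fold change. It was 182, 187 and 182 FPKM in control and 173, 175 and 181 FPKM in PRMT1 KD libraries. All 3 PRMT1 KD libraries lay below all 3 control libraries, but by a small margin, and the fold change was −0.058 with a 95% interval from −0.15 to 0.035 (limma adjusted p = 0.464).

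FBL (hg38 chromosome 19, 39834458 to 39846414, minus strand), by contrast, was higher in each PRMT1 KD library. It was 77.7, 80.9 and 75.6 FPKM in control and 82.2, 86.9 and 90.2 FPKM in PRMT1 KD libraries, with means of 78.1 ± 2.69 and 86.4 ± 4.0 FPKM (SD, n = 3 each). Its fold change of 0.14 had a 95% interval from 0.026 to 0.26 before adjustment and did not pass it (limma adjusted p = 0.179). Its partners in the box C/D snoRNP, the core proteins NOP56 and NOP58, overlapped between groups, with fold changes of 0.028 and 0.099, and NOP58 had 0.017 without PRMT1 KD replicate 3. The ratio of FBL to NOP56 FPKM, chosen after the values were seen and not tested, was 1.38 to 1.43 in control and 1.47 to 1.56 in PRMT1 KD libraries.

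**Figure D3:**
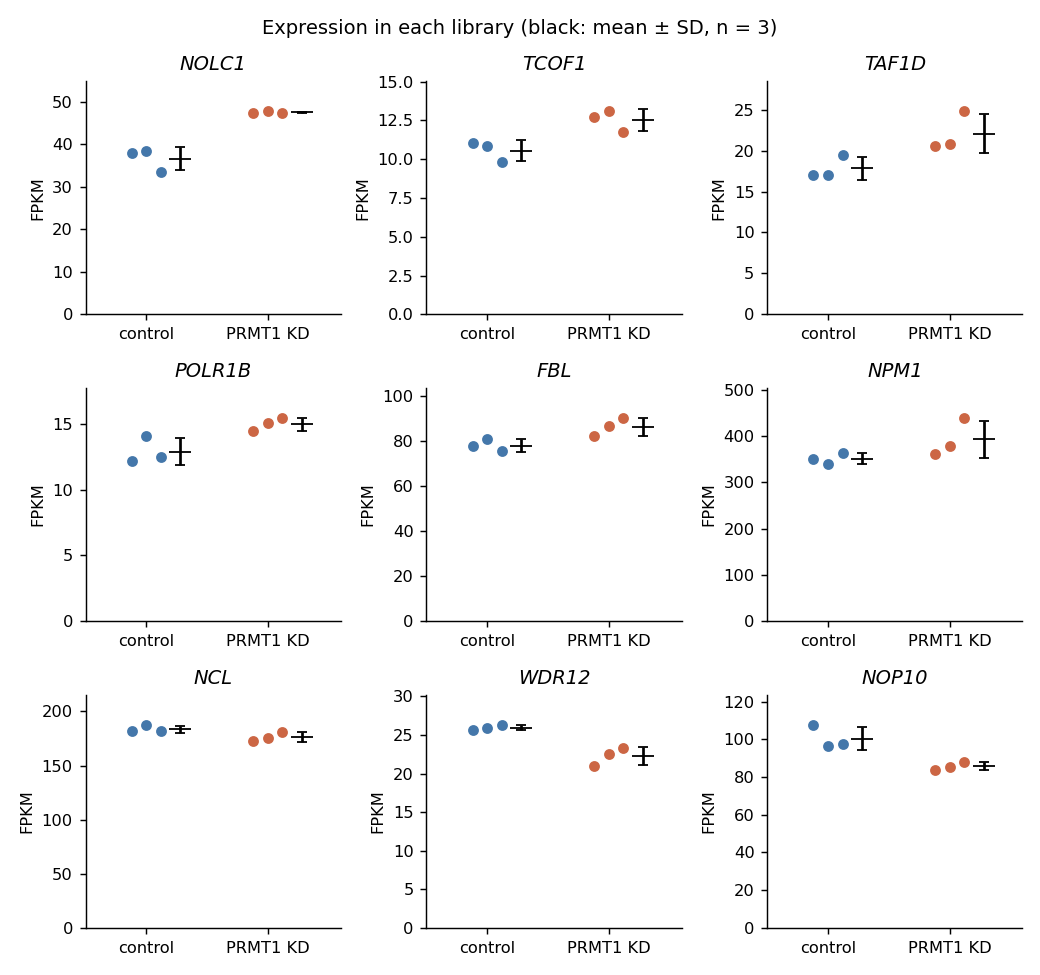
FPKM of selected members in each of the 6 libraries, with coloured points for single libraries and black marks for the mean and SD of each group (n = 3), on axes that start at 0. NOLC1 lies between 47.5 and 47.8 FPKM in the PRMT1 KD libraries and between 33.5 and 38.4 FPKM in control, while NCL, FBL, WDR12 and NOP10 differ by smaller proportions.

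The 4 box H/ACA snoRNP genes, whose proteins form 1 particle, had fold changes on both sides of 0, and none rose or fell. DKC1, the pseudouridine synthase, was 39.5, 38.2 and 39.9 FPKM in control and 40.5, 41.5 and 42.5 FPKM in PRMT1 KD libraries, which did not overlap, with a fold change of 0.080. NOP10 (hg38 chromosome 15, 34341713 to 34343177, minus strand), which encodes the small core protein that binds it, was 108, 96.3 and 97.4 FPKM in control and 83.8, 85.4 and 88.2 FPKM in PRMT1 KD libraries. All PRMT1 KD values lay below control, with the first control library the highest, and the fold change of −0.22 did not pass adjustment (limma adjusted p = 0.0909, unadjusted p = 0.00440). The ratio of NOP10 to DKC1 FPKM, chosen after the values were seen, was 2.44 to 2.72 in control and 2.06 to 2.07 in PRMT1 KD libraries. The other H/ACA proteins NHP2 and GAR1 had fold changes of −0.054 and 0.055, and both overlapped. GAR1 reached 28.1 FPKM in PRMT1 KD replicate 3 and 21.8 to 24.5 FPKM in the others, and its fold change was −0.050 without that library. NHP2 shares 27.4% of its exon bases with RMND5B on the opposite strand.

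NOP10 is also one of the shortest members, at 554 bases, and fold changes varied weakly with gene length across the table. Among the shortest of 4 equal groups of tested genes by length (37 to 1854 bases), the median fold change was −0.022 over all genes and −0.11 over the 4 members it held. In the longest group (6609 to 44677 bases), it was 0.046 over all genes and 0.073 over 13 members. Spearman's rho between length and fold change was 0.148 across all genes and 0.195 across the 55 members. Genes of one set of libraries are not independent replicates, and the part of length in the fold changes of the members was not tested.

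The small subunit processome and 40S maturation factors had 17 tested genes, with a median of 0.073, and none rose or fell. HEATR1, a large scaffold that also supports rRNA transcription, was 10.8, 11.2 and 10.9 FPKM in control and 12.7, 12.1 and 11.6 FPKM in PRMT1 KD libraries, which did not overlap, with a fold change of 0.13 (limma adjusted p = 0.217). HEATR1 shares 23.2% of its exon bases with other genes, mainly LGALS8 on the opposite strand. UTP3, a processome component, was the other gene of this group whose libraries did not overlap, at 69.9 to 72.2 FPKM in control and 72.9 to 78.3 FPKM in PRMT1 KD libraries (fold change 0.087).

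Other processome genes overlapped between groups. UTP15, which binds the 5′ external transcribed spacer with the UTP-A complex, had a fold change of 0.14, and UTP18 and UTP20 had 0.084 and 0.073. RRP9, the protein that binds the U3 snoRNA, had −0.053. Of the factors that export and finish the 40S subunit, RRP12 had −0.059, and LTV1 was 12.6, 13.8 and 15.6 FPKM in control and 11.5, 12.6 and 13.0 FPKM in PRMT1 KD libraries. LTV1 thus overlapped despite the third most negative fold change among the members (−0.16, limma adjusted p = 0.348), and 34.8% of its exon bases are shared with other genes on the same strand. NOB1, the endonuclease that makes the 3′ end of 18S rRNA, had a fold change of 0.10, and DDX52, a helicase of the processome and one of the least expressed members at 3.64 FPKM, had 0.033 (−0.018 without PRMT1 KD replicate 2 and −0.0055 without control replicate 2).

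The 60S assembly factors had a median of 0.024 over 15 tested genes. PES1, BOP1 and WDR12 form the PeBoW complex, needed to process the rRNAs of the large subunit. WDR12 (hg38 chromosome 2, 202874782 to 203014798, minus strand) was 25.6, 25.9 and 26.3 FPKM in control and 21.0, 22.5 and 23.3 FPKM in PRMT1 KD libraries. The control libraries had an SD of 0.323 FPKM, all PRMT1 KD libraries lay below them, and the fold change was −0.21 (limma adjusted p = 0.0874, and 0.0236 with voom). PES1 and BOP1 overlapped between groups, with fold changes of 0.011 and −0.038, and neither sign was stable. PES1 had −0.042 without control replicate 3, −0.0041 without PRMT1 KD replicate 1 and −0.0096 with median scaling, and BOP1 had 0.036 without PRMT1 KD replicate 3. The ratio of WDR12 to PES1 FPKM, chosen after the values were seen, was 0.700 to 0.804 in control and 0.579 to 0.669 in PRMT1 KD libraries. Ratios of TAF1D to TAF1B and of NOLC1 to TCOF1 were also taken. The former overlapped, at 2.15 to 2.53 in control and 2.36 to 3.15 in PRMT1 KD libraries. The latter was 3.42 to 3.55 in control and 3.65 to 4.04 in PRMT1 KD libraries. None of these ratios was tested.

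RRP1B, a nucleolar protein that binds protein phosphatase 1, was 27.9, 27.9 and 24.9 FPKM in control and 29.7, 31.1 and 28.8 FPKM in PRMT1 KD libraries. The groups did not overlap, and the fold change of 0.15 did not pass adjustment (limma adjusted p = 0.245). The DEAD-box helicase gene DDX18 and NOC3L, whose product travels with pre-60S particles, both had 0.13 with overlapping libraries, and DDX18 had 0.042 without PRMT1 KD replicate 3. GNL3 (nucleostemin) had 0.018, and NIP7, which binds pre-rRNA, had −0.058 (0.0021 without PRMT1 KD replicate 1). DDX21, a helicase that acts in both rRNA transcription and processing, was 34.5, 35.2 and 38.4 FPKM in control and 36.6, 38.5 and 41.0 FPKM in PRMT1 KD libraries, with a fold change of 0.10.

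NOP2 and DDX47 were below the filter and were not tested. NOP2, an rRNA methyltransferase of 60S assembly, was 0.219, 0.423 and 0.323 FPKM in control and 0.220, 0.267 and 0.238 FPKM in PRMT1 KD libraries, on 17 to 32 reads. DDX47, a helicase of the processome, was 0.527, 0.369 and 0.768 FPKM in control and 0.721, 0.551 and 0.573 FPKM in PRMT1 KD libraries, on 30 to 64 reads. The libraries overlapped for both, and differences could not be resolved at these read numbers. In GENCODE release 29, in which every gene identifier of the table was found with the same start and end, 54.4% of the exon bases of NOP2 lie also in exons of AC006064.6 and 36.5% of those of DDX47 in exons of APOLD1, on the same strand. These were the 2 largest shares among the members, followed by LTV1, and only these 3 exceeded 25% on the same strand. AC006064.6 was listed at a mean of 0 FPKM and APOLD1 at 2.01 FPKM. How reads on shared bases were counted is not given in the sources used here, and its part in the low values was not tested.

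**Figure D4:**
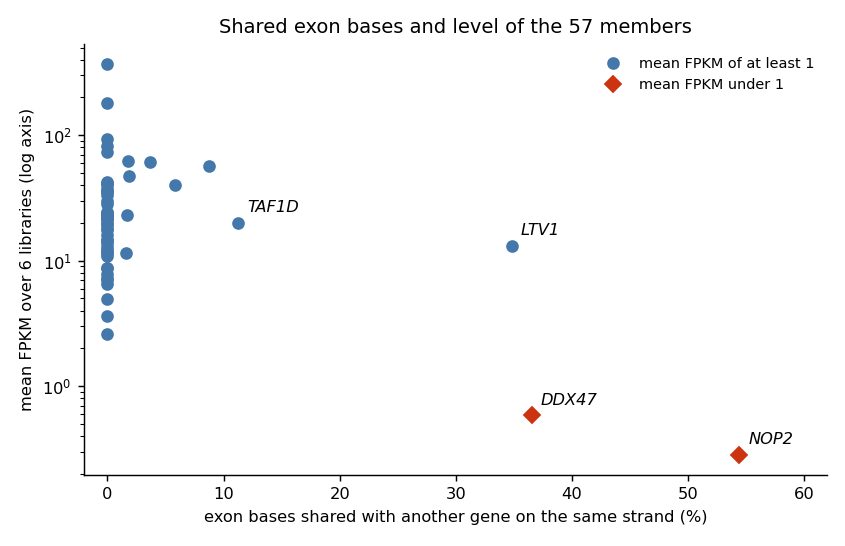
Mean FPKM of each of the 57 members over the 6 libraries (vertical, log axis) against the share of its exon bases that lie in another gene on the same strand (horizontal, percent, GENCODE release 29). NOP2 (54.4%) and DDX47 (36.5%), drawn as diamonds, lie at the lower right under 1 FPKM, while LTV1 (34.8%) lies at 13.2 FPKM.

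The members were also summarised per library, since several were highest in PRMT1 KD replicate 3 or lowest in control replicate 3. The median over the members, relative to each gene's control mean, was 0.0057, 0.019 and −0.020 in control replicates 1, 2 and 3 and 0.023, 0.054 and 0.072 in PRMT1 KD replicates 1, 2 and 3. All 3 PRMT1 KD medians lay above the control medians, with PRMT1 KD replicate 1 barely so. PRMT1 KD replicate 3 was the highest library for 19 of 55 members (34.5%), beside 25.7% of all genes tested, and control replicate 3 was the lowest for 18 members (32.7%), beside 19.8%. Without PRMT1 KD replicate 3, the median fold change of the members was 0.035, and without PRMT1 KD replicate 1 it was 0.083.

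**Figure D5:**
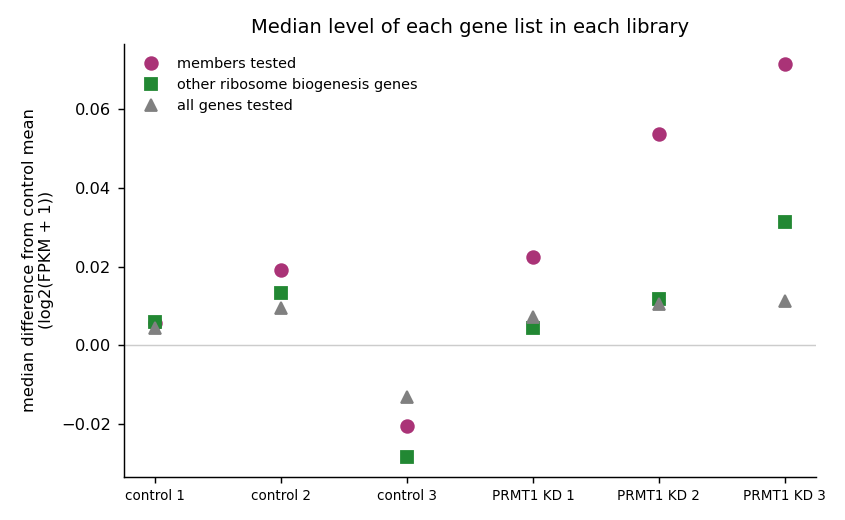
Median difference from the control mean (log2(FPKM + 1) scale) in each of the 6 libraries, for the members, the other ribosome biogenesis genes and all genes tested. The members reach 0.072 in PRMT1 KD replicate 3, where all genes stand at 0.011, and the control libraries lie between −0.020 and 0.019 for the members.

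Members with a CACGTG motif in the promoter window had a median fold change of 0.021 (18 tested, 13 above 0), and members with an entry but no motif had 0.075 (28 tested, 20 above 0). An unadjusted p under 0.05 was reached by 2 of the 18, FBL and NOP10, which lie on opposite sides of 0. It was reached by 4 of the 28 without the motif, and by 19.5% of all genes tested. The difference between members with and without the motif was not tested. NOLC1 and TCOF1 were among 9 members with no promoter entry.

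A further 133 genes of ribosome production were listed by function, of which 132 were tested. In this list only MYC, the transcription factor known to drive ribosome biogenesis, passed adjustment. That is 0.758% of the list genes tested beside 2.05% of all genes tested. MYC was 223, 234 and 212 FPKM in control and 286, 284 and 267 FPKM in PRMT1 KD libraries. The lowest PRMT1 KD library lay above the highest control library, and MYC rose by 0.32 on the log2 scale (limma adjusted p = 0.0399). That call was kept in 6 of 15 alternative settings. It was lost with no filter on low values, without the variance trend, with median scaling (limma adjusted p = 0.0506) and without any 1 of the 6 libraries (0.0686 to 0.170).

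The other listed genes gave values in both directions. An unadjusted p under 0.05 was reached by 5 with higher values, which besides MYC were the topoisomerase gene TOP1 (fold change 0.17), the 60S assembly factors MAK16 (0.29) and SBDS (0.23) and the export receptor XPO1 (0.22), and by 7 with lower values (9.09% in all, beside 19.5% of all genes). The lower ones were the small polymerase subunit genes POLR2L and POLR2K, with fold changes of −0.36 and −0.25, SURF6 (−0.21), RRP36 (−0.20), EIF6 (−0.17), NOL7 (−0.17) and SNU13 (−0.11). POLR2L and POLR2K encode subunits shared by RNA polymerases I, II and III. SNU13, the small protein that nucleates box C/D snoRNPs with FBL, was 42.7 to 45.6 FPKM in control and 40.3 to 40.8 FPKM in PRMT1 KD libraries (limma adjusted p = 0.229).

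The members also host snoRNA genes. Within 8 members lie 32 snoRNA genes, of which 13 had any read and none had more than 42 reads in a library. Some lie in annotated exon bases of the host on the same strand. SNORA56 takes up 3.07% of the exon bases of DKC1, SNORA51 1.89% of those of NOP56, SNORD19B 2.53% of those of GNL3 and RF00575 1.88% of those of NOP58, and all 4 were listed at 0 reads in every library. No comparison of the snoRNAs was made at these read numbers.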

How the data were processed

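RNA-seq of 3 control and 3 PRMT1 KD libraries of MM.1S cells was used, grouped by the sample labels. The authors deposited FPKM values per gene, which per the submitters' processing notes came from featureCounts 1.5.0-p3 and hg38. The aligner, annotation release and strand setting are not given in the sources used here. FPKM multiplied by gene length and divided by the worth of 1 read, estimated in each library, gave whole reads for 100% of values above 0 (within 0.01 of a read), and the deposited values already carry a median-of-ratios scaling between libraries. Intervals cover the spread between libraries.

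After addition of 1 to each FPKM, log2 values were fitted in R 4.3.3 with limma 3.58.1, using moderated two-sided tests with a trend of variance on mean. P-values were adjusted by Benjamini-Hochberg over the 13585 genes with a mean of at least 1 FPKM. The procedure was tested on simulated data with changes larger than those of any member, which does not show how well changes of the members' size are found. Single genes were compared with exact permutation tests in Python 3.11.15. Figures were drawn with matplotlib 3.10.9. Alternatives were a pseudocount of 0.1, no filter, a mean of at least 5 FPKM, median scaling, TPM, quantile normalization, no trend, the replicate block, voom on the reads and each library left out.

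The members and lists were chosen with earlier results of these data known. Genes are named if they had an adjusted p under 0.05, were among the 10 largest or 10 smallest fold changes, the 5 most or 3 least expressed, under the filter, or listed for their role. Other members are named to complete their complexes, and list genes with an unadjusted p under 0.05 were named after their values were seen. Promoters are from RefSeq (GRCh38.p14). Protein sequences were not analysed here.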

Additional observations from a re-analysis of the deposited data

How the results depend on the processing

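Of the calls described, PRMT1 stood under all 15 alternatives, NOLC1 under 7 and MYC under 6. The call of SLAMF7 was not followed under the alternatives. The count of members called was 0 with no filter (9 at an unadjusted p under 0.05 in limma) and 0 without the variance trend (7 unadjusted), 4 with voom (NOLC1, WDR12, TAF1D and TCOF1, beside 6.59% of all genes), and 0 to 1 with each library left out in turn. Calls over all genes, 279 as reported, were 35 with no filter, 473 at a mean of at least 5 FPKM, 43 without the trend, 895 with voom and 13 to 94 with a library left out. Called genes of the other ribosome biogenesis list, 1 as reported, came to 0 with no filter, with median scaling and without the trend, 2 at a mean of at least 5 FPKM, 4 with voom (MYC, POLR2K, POLR2L and MAK16) and 0 to 1 with a library left out. Of that list, 5 higher and 7 lower genes had an unadjusted p under 0.05, and 11 were lower with median scaling and with quantile normalization. The median fold change of the members was 0.039 with median scaling and 0.081 with TPM, where that of all genes was −0.0081 and 0.029, and 0.035 to 0.083 with a library left out. The share of all calls that were higher was 52.0% as reported, 37.1% with median scaling and 62.5% with TPM, and members higher at an unadjusted p under 0.05 were 4 and 11 in place of 7. That count was 3 without control replicate 1 and 4 without control replicate 3 or PRMT1 KD replicate 2, and the list had 8 higher and 11 lower genes without control replicate 3 and 3 higher without PRMT1 KD replicate 3. PES1 had −0.0096 with median scaling. With a library left out, fold changes spanned −0.046 to 0.10 for POLR1A, −0.11 to 0.059 for TAF1A, −0.050 to 0.13 for GAR1, −0.018 to 0.11 for DDX52, −0.084 to 0.036 for BOP1, −0.042 to 0.038 for PES1 and −0.13 to 0.0021 for NIP7. The cause of these differences was not tested. Under the alternatives, all genes were counted only at an adjusted p under 0.05. The unadjusted counts of members and list genes there have no share of all genes beside them. NOP2 and DDX47 had only 17 to 64 reads per library, so differences in them could not be resolved.

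Replicate numbers are shared by the groups, but same-numbered libraries deviated together only weakly (correlations 0.020, 0.063 and 0.10, beside −0.075 to 0.019 for different numbers), so the samples were taken to share only a number. Each library correlated best with its own number, a hint from the data and not from the design. With the replicate block, 204 of all genes were called, 1 member was called (TAF1D, adjusted p = 0.0495, in place of NOLC1, adjusted p = 0.0523), MYC kept its call (adjusted p = 0.0441), and the list had 13 higher and 14 lower genes at an unadjusted p under 0.05. The share of all genes at that unadjusted limit was not counted with the block.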
